A study of Homo sapiens with 2 samples.

Results

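The 10 genes described here are the aldo-keto reductases AKR1C1, AKR1C2, AKR1C3, AKR1B1 and AKR1B10 and the antioxidant genes HMOX1, GCLM, GCLC, TXNRD1 and SRXN1. They were taken as every probe set that the platform annotation assigns to them, which gave 21 of the 54675 probe sets on the array. Of these 21, 20 carried a single gene symbol and 1 was shared by AKR1C2 and AKR1C1. No probe set was listed for AKR1B1, which was therefore not analysed here. The samples were CD90+ and CD90- cells, sorted by flow cytometry from KYSE-140, a long-established human cell line from a squamous carcinoma of the esophagus, and named by their cell population label. The labels name no treatment and no engineered change for either population. Total RNA of each was read on 1 Affymetrix U133 Plus 2.0 array, so every difference below is between 2 RNA samples and has no replicate error, no test and no p-value. RNA was pooled over the sorted cells, so fewer cells expressing a gene and less RNA per cell cannot be told apart.

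NRF2, encoded by NFE2L2, is a transcription factor that KEAP1 holds in check by directing its degradation through a CUL3 ubiquitin ligase. Oxidants and electrophiles release it, and it then binds antioxidant response elements with small MAF proteins and raises genes for glutathione synthesis, thioredoxin reduction, NADPH supply and carbonyl reduction. AKR1B10, the AKR1C genes, GCLM, GCLC, TXNRD1, SRXN1 and HMOX1 are widely used as readouts of this pathway, and the AKR1C enzymes also reduce steroids, prostaglandins and retinal. Activation of NRF2 is common in esophageal squamous carcinoma, through changes in NFE2L2 or KEAP1.

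Values are MAS5 signals, a linear brightness in which the mismatch probes of a set correct its matching probes, scaled by the authors to a common level. The 2 to 98% trimmed mean was 500 (499.9) on both arrays. A probe set was called measured if it reached a floor of 71.6, the median signal, on at least 1 array. Signals under the floor were set to it before taking the log2 ratio of CD90+ to CD90- cells, and 12466 genes were measured. The number of arrays limits the precision. Where a gene had several measured probe sets, their log2 ratios scattered with a pooled SD of 0.31 (6188 genes). The scatter was 0.40 in genes that peaked below 4 times the floor and 0.24 in those that peaked at 64 times or more. This covers probe sets on the same arrays and not the spread between sorts. THY1, which encodes CD90, read 293 in CD90+ and 78.9 in CD90- cells on its brightest probe set outside the cross-hybridising class, in the direction of the sort. The epithelial label held on both arrays: all 6 measured of 8 squamous epithelial markers lay within 2-fold, with KRT5 at 19357 and 19208. Of the other cell type lists, 5 of 6 fibroblast markers were under the floor on both arrays, among them COL1A2, COL3A1, DCN and LUM. The 3 leukocyte markers with a probe set were also under the floor, as were 3 of 4 endothelial markers. The summed signal was 266 in CD90+ and 231 in CD90- cells for the fibroblast list, 38.5 and 106 for the leukocyte list and 155 and 102 for the endothelial list. Their part in the differences below was not tested.

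AKR1C signals were lower in CD90+ cells, GCLM was lower on its 3 probe sets by 1.16-fold to 1.64-fold, and the measured probe sets of GCLC, TXNRD1 and SRXN1 differed by at most 1.12-fold. Of the 10 genes 8 were measured by the probe set that stood for them, the brightest outside the cross-hybridising _x_at class. Among these 8, AKR1C3, AKR1C1 and HMOX1 were at least 2-fold lower in CD90+ cells, 0 were at least 2-fold higher and 5 lay between. Over all measured genes the shares were 1.75% lower and 2.47% higher by that much. At a 1.5-fold difference 3 of the 8 were lower and 1 was higher, against 6.76% and 7.37% of all measured genes. The median log2 ratio of the 8 genes was -0.15, against 0.01 over all measured genes. By probe set, 16 of the 21 were measured, and 4 of these 16 were lower by at least 2-fold and 0 were higher by that much, against 1.56% and 1.9% of all measured probe sets. Ratios were below 0 in 14 of the 16, against 51.2% of all measured probe sets. At a 1.5-fold difference, 9 of the 16 were lower and 1, that of AKR1B10, was higher, against 7.49% and 6.92% of all measured probe sets. The AKR1C probe sets supplied 3 of the 4 that were at least 2-fold lower, and 7 of the 14 with ratios below 0. Their 7 measured probe sets had a median log2 ratio of -0.87, and the other 9 had a median of -0.16. Probe sets of a gene share their target, so these counts are not of independent measurements. The genes were also chosen with earlier results of these data known, so the shares describe them and test nothing.

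**Figure D1:**
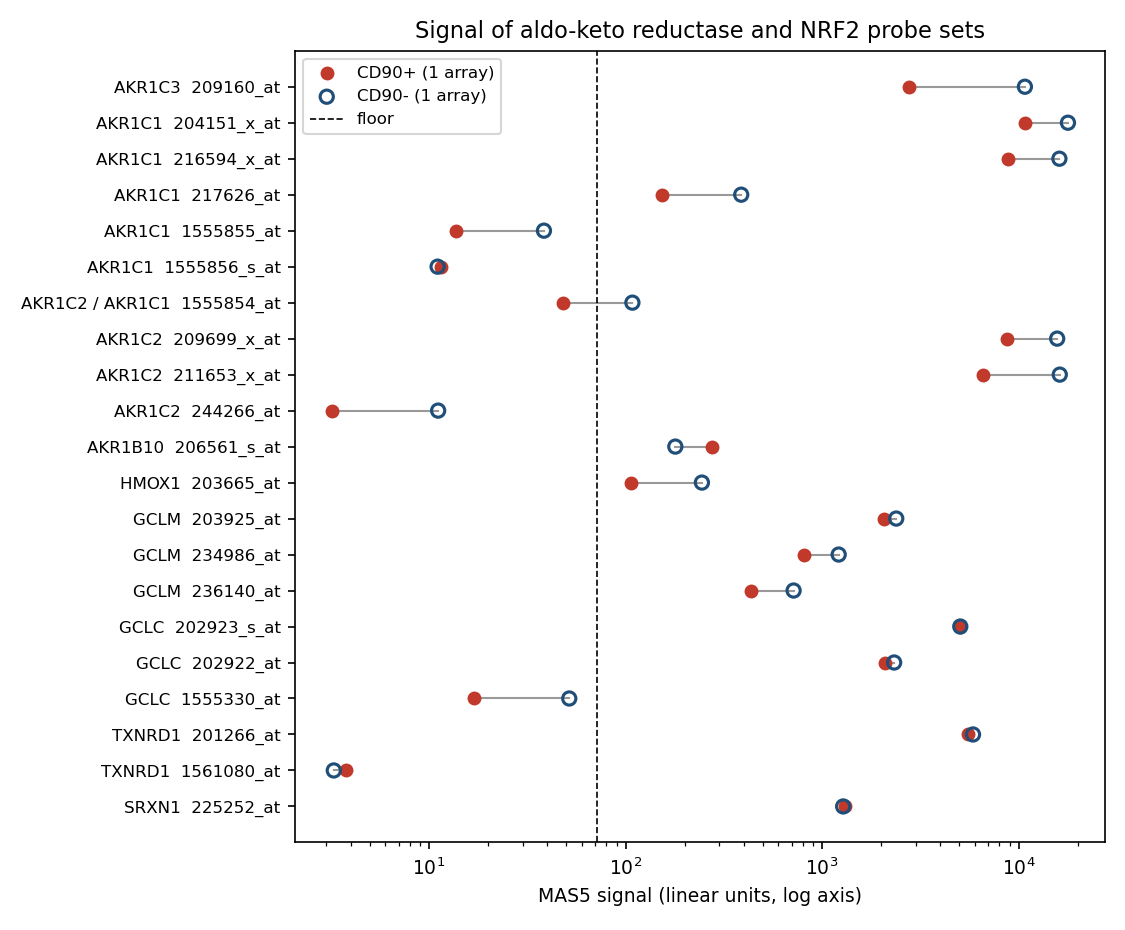
MAS5 signal (linear units on a log axis) of the 21 probe sets in CD90+ cells (filled red) and CD90- cells (open blue), 1 array each, with the floor of 71.6 dashed. The open symbols of the AKR1C probe sets that reach the floor all lie to the right of the filled ones, the pair of AKR1B10 is the other way round, and the pairs of SRXN1, TXNRD1 and the brightest GCLC probe set nearly coincide.

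AKR1C1, AKR1C2 and AKR1C3 lie side by side on chromosome 10 and encode closely related cytosolic reductases that use NADPH. AKR1C3 is a 17-ketosteroid reductase that makes testosterone from androstenedione and also reduces prostaglandins, AKR1C1 inactivates progesterone, and AKR1C2 inactivates dihydrotestosterone. For each gene, the 250 bases before an annotated start are shown because the signals annotated to these neighbours were lower in CD90+ cells. For AKR1C2 this rests on _x_at probe sets and on the probe set shared with AKR1C1. AKR1C3 has a further window, before its first start, that is not shown. These bases do not show what a probe set binds, and no transcript or probe sequences were compared. The sequences are RefSeq's on GRCh38.p14, written on the strand of the gene. In AKR1C1 and AKR1C2 the capitals mark the longest run that both share, and in AKR1C3 the bases that equal AKR1C1 in a pairwise alignment. The AKR1C1 window is chr10:4963165-4963414 on the plus strand, the AKR1C2 window chr10:5003858-5004107 on the minus strand, and the AKR1C3 window, before the second of its annotated starts, chr10:5094164-5094413 on the plus strand.
AKR1C1: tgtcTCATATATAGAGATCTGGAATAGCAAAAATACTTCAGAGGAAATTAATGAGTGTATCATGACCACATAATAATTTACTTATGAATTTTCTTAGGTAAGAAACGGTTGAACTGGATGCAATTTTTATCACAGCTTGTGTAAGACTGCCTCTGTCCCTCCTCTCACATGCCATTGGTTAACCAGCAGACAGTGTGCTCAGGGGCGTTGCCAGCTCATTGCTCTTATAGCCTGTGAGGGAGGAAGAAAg
AKR1C2: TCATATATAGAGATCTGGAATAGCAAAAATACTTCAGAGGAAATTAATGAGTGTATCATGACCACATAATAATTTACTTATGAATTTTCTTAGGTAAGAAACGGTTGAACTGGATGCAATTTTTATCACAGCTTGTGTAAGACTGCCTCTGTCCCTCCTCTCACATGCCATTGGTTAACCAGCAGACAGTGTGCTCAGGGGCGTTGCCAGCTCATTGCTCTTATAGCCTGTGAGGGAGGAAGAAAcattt
AKR1C3: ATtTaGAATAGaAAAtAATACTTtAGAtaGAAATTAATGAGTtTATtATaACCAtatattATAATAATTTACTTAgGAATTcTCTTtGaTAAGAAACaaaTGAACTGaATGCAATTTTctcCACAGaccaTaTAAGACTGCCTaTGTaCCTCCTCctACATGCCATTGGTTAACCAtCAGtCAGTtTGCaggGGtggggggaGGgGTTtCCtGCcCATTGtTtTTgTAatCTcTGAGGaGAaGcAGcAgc
The shared run of AKR1C1 and AKR1C2 was 245 bases long. Over the whole 300-base promoter windows, which add 50 bases after the start, 288 of 292 aligned bases (98.6%) were identical between AKR1C1 and AKR1C2. For AKR1C1 against AKR1C3 the figure was 225 of 283 (79.5%) at the second start and 227 of 291 (78.0%) at the first.

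AKR1C3 had the lowest ratio of the genes described here. Its single probe set, 209160_at, of the class meant to match only its own gene, read 2766 in CD90+ and 10777 in CD90- cells. The signal was thus 3.90-fold lower in CD90+ cells, a log2 ratio of -1.96. The CD90+ value was still 38.6 times the floor, so the transcript was well measured in both populations. Of the 12466 measured genes 23 had a lower ratio. Among the 5012 genes whose brighter side was at least 16 times the floor, of which 1.06% were at least 2-fold lower, AKR1C3 had the 9th lowest ratio, and among the 1563 genes at least 64 times the floor the 2nd lowest. Its log2 ratio lay between -1.98 and -1.95 under quantile, loess and median-centring normalization. The other settings could not change it, because it has 1 probe set and both signals are above every floor tried.

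Signals annotated to AKR1C1 and AKR1C2 were also lower in CD90+ cells on every probe set that reached the floor, by a smaller and less even amount. The bright probe sets of both genes are of the _x_at class, which can bind transcripts of related genes, so they are read together. The parts of AKR1C1, AKR1C2 and AKR1C3 transcripts in their signal cannot be told apart. The 4 bright _x_at probe sets read as follows. The AKR1C1 probe set 204151_x_at read 10763 in CD90+ and 17847 in CD90- cells, 1.66-fold lower. The AKR1C1 probe set 216594_x_at read 8827 and 16147, 1.83-fold lower. The same direction held for the 2 annotated to AKR1C2. The AKR1C2 probe set 209699_x_at read 8690 and 15732, 1.81-fold lower. The AKR1C2 probe set 211653_x_at read 6633 and 16218, 2.45-fold lower. Their log2 ratios ran from -1.29 to -0.73, with an SD of 0.24, and none reached the -1.96 of AKR1C3. Among all measured _x_at probe sets 1.02% were lower by at least 2-fold and 1.77% higher.

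The dimmer AKR1C probe sets had the same direction where they could be read. For AKR1C1 the probe set outside the _x_at class, 217626_at, read 153 in CD90+ and 388 in CD90- cells, 2.53-fold lower and a log2 ratio of -1.34. The probe set shared by AKR1C2 and AKR1C1, 1555854_at, read 48.1 and 108, at least 1.51-fold lower because the CD90+ value is under the floor. Both are far dimmer than the _x_at probe sets. The other 2 AKR1C1 probe sets, 1555855_at at 13.8 and 38.5 and 1555856_s_at at 11.5 and 11.1, stayed under the floor on both arrays. So did 244266_at, the AKR1C2 probe set outside the _x_at class, at 3.20 and 11.1. AKR1C2 therefore has no value under the rule for genes, and its evidence rests on the _x_at probe sets. By its brightest or its least changed probe set AKR1C1 was 1.66-fold lower (log2 ratio -0.73). A floor set at the 75th percentile, 397, left it not measured.

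**Figure D2:**
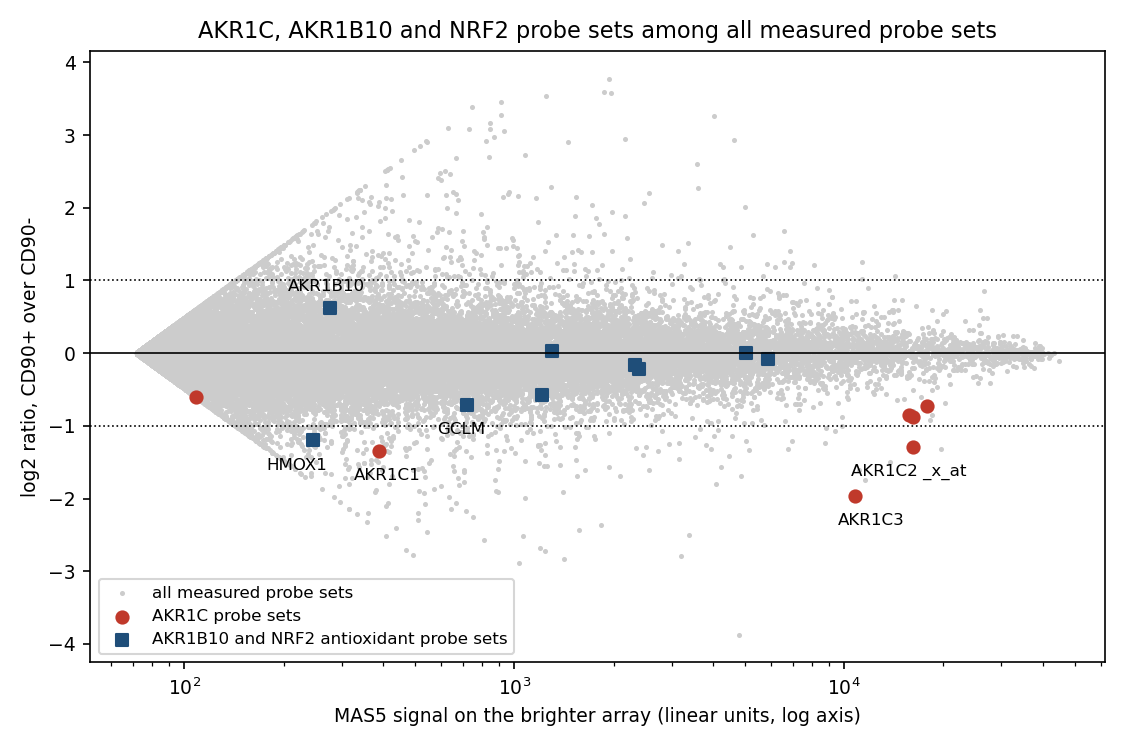
Log2 ratio, CD90+ over CD90-, against the signal on the brighter array (linear units on a log axis) for all 29097 measured probe sets (grey), the AKR1C probe sets (red circles) and the remaining AKR1B10 and NRF2 antioxidant probe sets (blue squares), with dotted lines at 2-fold. The 5 bright AKR1C probe sets lie below nearly all others of their brightness, from -0.73 to -1.96, and the blue squares lie near 0 except HMOX1 at -1.20, AKR1B10 at 0.62 and the dimmer GCLM probe sets.

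The signal of AKR1B10, a reductase of retinal and lipid aldehydes from a separate cluster on chromosome 7, had the opposite direction to the AKR1C signals. Its single probe set, 206561_s_at, read 276 in CD90+ and 179 in CD90- cells, 1.54-fold higher and a log2 ratio of 0.62. It was 3.85 times the floor on the brighter array, where probe sets of the same gene had a pooled SD of 0.40. Its ratio lay at the 93.4th percentile of all measured genes. A floor at the 75th percentile left AKR1B10 not measured, and without the _x_at, _s_at and _a_at classes it had no probe set. Whether this _s_at probe set binds other transcripts was not checked, and the neighbouring gene AKR1B15 had no probe set listed.

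HMOX1 encodes heme oxygenase, the inducible enzyme that opens the heme ring to give biliverdin, iron and carbon monoxide. In addition to NRF2 it is controlled by the repressor BACH1. Its single probe set, 203665_at, read 107 in CD90+ and 245 in CD90- cells, 2.30-fold lower and a log2 ratio of -1.20. The signal was low on both arrays, 3.42 times the floor on the brighter, where probe sets of the same gene had a pooled SD of 0.40. Of the measured genes 130 had a lower ratio. It too was not measured with that higher floor. BACH1, singled out for its role, read 541 in CD90+ and 379 in CD90- cells, 1.43-fold higher on its single measured probe set. Its part in the HMOX1 signal was not tested.

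Of the genes of glutathione synthesis, GCLC was nearly equal in both populations and GCLM was lower in CD90+ cells by up to 1.64-fold. GCLC and GCLM encode the catalytic and the modifier subunit of glutamate-cysteine ligase, the rate-limiting enzyme. The brightest GCLC probe set, 202923_s_at, read 5050 in CD90+ and 5055 in CD90- cells, with a log2 ratio of -0.0013. The second, 202922_at, read 2081 and 2329, 1.12-fold lower. Both ratios were smaller than the pooled SD of probe sets, 0.31, and 1555330_at, at 16.9 and 51.7, was under the floor on both arrays. GCLM was lower in CD90+ cells on all of its 3 probe sets. The brightest, 203925_at, read 2060 and 2387, 1.16-fold lower. The second, 234986_at, read 813 and 1216, a log2 ratio of -0.58, and the third, 236140_at, read 438 and 717, 1.64-fold lower. The log2 ratios of GCLM thus ran from -0.71 to -0.21, and the brightest probe set gave the smallest difference.

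The thioredoxin members were nearly equal in both populations. TXNRD1, the cytosolic thioredoxin reductase, read 5540 in CD90+ and 5868 in CD90- cells on 201266_at, 1.06-fold lower and a log2 ratio of -0.083. Its other probe set, 1561080_at, was near 0 on both arrays, at 3.78 and 3.28. SRXN1, or sulfiredoxin, which repairs overoxidised peroxiredoxins, read 1304 and 1281 on 225252_at, 1.02-fold higher. In the order of log2 ratios AKR1C3 was lowest, followed by AKR1C1, HMOX1, GCLM, TXNRD1, GCLC, SRXN1 and AKR1B10. The neighbours from GCLM to SRXN1 in this order differ from each other by less than the pooled SD of probe sets, 0.31, and so do AKR1C1 and HMOX1.

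Promoter windows were searched for the antioxidant response element core TGACNNNGC on both strands. Of all 35116 promoter windows of 300 bases 13.3% held it. Of the 10 genes 8 had a window, 11 windows in all, and 3 windows held a match. They belong to GCLM and TXNRD1 (1 window and 2 windows), for which the 59 bases around a match are shown with the match in capitals, to set the letters beside the values of these genes given above. The GCLM stretch is chr1:93909431-93909489 on the minus strand, and its match lies 34 to 26 bases before the start and reads on the strand opposite to the gene. The TXNRD1 stretches, at 2 annotated starts, are chr12:104215655-104215713 and chr12:104286905-104286963 on the plus strand, with matches 99 to 91 bases before the first start, on the strand of the gene, and 102 to 94 bases before the second, on the opposite strand. A further TXNRD1 match, 8 bases before the first start, is not shown.
GCLM: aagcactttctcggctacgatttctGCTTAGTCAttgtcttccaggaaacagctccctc
TXNRD1 first start: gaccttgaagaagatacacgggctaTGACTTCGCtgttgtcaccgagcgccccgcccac
TXNRD1 second start: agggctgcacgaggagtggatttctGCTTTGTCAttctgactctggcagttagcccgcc
The windows of AKR1C1, AKR1C2, AKR1C3, AKR1B1, GCLC and SRXN1 held no match, which says only that these letters are not in the 300 bases searched. AKR1B10 and HMOX1 had no window and were not searched.

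The pathway around these genes was described with 109 genes in 9 lists, of which 88 were measured. The lists, too, were chosen with earlier results of these data known. In CD90+ cells 4 of the 88 (4.55%) were higher by at least 2-fold and 0 were lower by that much, against 2.47% and 1.75% of all measured genes. Their median log2 ratio was -0.01. Over all measured genes that median was 0.01.

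Among NRF2 and its regulators 9 were measured, none beyond 2-fold, with a median of -0.15. Ratios were below 0 in 6 of the 9, against 48.8% of all measured genes. The brightest were RBX1, the ring subunit of the CUL3 ligase, at 13268 in CD90+ and 13946 in CD90- cells, and NFE2L2 itself. On its single measured probe set NFE2L2 read 4057 and 6657, 1.64-fold lower and a log2 ratio of -0.71, the lowest of its list. Past 1.5-fold 1 of the 9, NFE2L2, was lower and 0 were higher, against 6.76% and 7.37% of all measured genes. KEAP1, singled out for its role, read 1970 and 2226, 1.13-fold lower.

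Detoxification enzymes and transporters linked to NRF2 had ratios on both sides of 0, 7 above and 5 below. Of 12 measured, 2 were higher by at least 2-fold and 0 lower, against 2.47% and 1.75% of all measured genes. Their median was 0.03. ABCC3, an efflux pump for conjugates, read 454 in CD90+ and 71.9 in CD90- cells, 6.32-fold higher, with a CD90- value at the floor. Its 4 measured probe sets all had log2 ratios above 0, from 0.87 to 2.66, so that by the least changed it was under 2-fold. ALDH3A1, an aldehyde dehydrogenase, read 183 and 81.4, 2.25-fold higher. NQO1, the quinone reductase most often used as an NRF2 readout and singled out for that role, read 3743 and 3319, 1.13-fold higher, with its 3 probe sets from 0.02 to 0.82 on the log2 scale.

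Of 16 measured genes of glutathione synthesis and use, 1 was at least 2-fold higher and 0 lower, against 2.47% and 1.75% of all measured genes. The median of this list was 0.06. GPX8, a peroxidase of the endoplasmic reticulum, read 1803 in CD90+ and 885 in CD90- cells, 2.04-fold higher on its brighter probe set. Past 1.5-fold 3 of the 16 were lower (SLC7A11, GPX2 and GSTA4) and 2 higher (GPX8 and MGST2), against 6.76% and 7.37% of all measured genes. These genes were named after their values were seen, apart from GPX8. SLC7A11, the cystine importer that feeds glutathione synthesis, read 1181 and 2042, 1.73-fold lower, with its 3 probe sets from -0.79 to -0.27. GPX2, an epithelial glutathione peroxidase, read 5248 and 8445, 1.61-fold lower.

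Of 12 measured thioredoxin and peroxiredoxin genes, 1 was at least 2-fold higher and 0 lower, against 2.47% and 1.75% of all measured genes. The median of this list was 0.08. TXNIP, which binds and inhibits thioredoxin, read 1016 in CD90+ and 374 in CD90- cells, 2.72-fold higher, but the lowest of its 3 probe sets had a log2 ratio of 0.31 and their mean was under 2-fold. None of 6 measured NADPH supply genes was beyond 2-fold. Their median of -0.29 was the lowest of the 9 lists, but 0 of the 6 were past 1.5-fold either way. Ratios were below 0 in 5 of 6, against 48.8% of all measured genes. TKT read 9300 in CD90+ and 8343 in CD90- cells, and MTHFD2 read 8046 and 9595. None of 10 measured heme and iron genes was beyond 2-fold, with a median of -0.16, TFRC, the transferrin receptor, at 28811 and 32579, and FTL, the ferritin light chain, at 15312 and 15472.

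The remaining lists had no member beyond 2-fold. Of 11 other aldo-keto reductases 4 were measured, with the aflatoxin aldehyde reductase AKR7A2 at 3082 in CD90+ and 3619 in CD90- cells and its relative AKR7A3, on an _x_at probe set, at 353 and 494. The largest difference in this list, singled out after its value was seen, was in KCNAB2, a potassium channel subunit of the same superfamily, at 323 and 166, 1.95-fold higher, while its second measured probe set gave a log2 ratio of 0.16. After loess normalization KCNAB2 was beyond 2-fold. AKR1C4, the liver form of the AKR1C cluster, was under the floor on both arrays, at 41.0 and 28.9. The 3 measured superoxide and peroxide enzymes had a median of -0.08, with SOD1 at 19149 and 20196 and CAT, or catalase, at 1855 and 1381. The 16 measured genes of steroid, prostaglandin and retinal metabolism, which act on the same kinds of substrate as the AKR1C enzymes, had a median of 0.08. Their brightest members, PTGES3 at 25652 and 23953 and RDH11 at 9170 and 8334, were near equal.

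**Figure D3:**
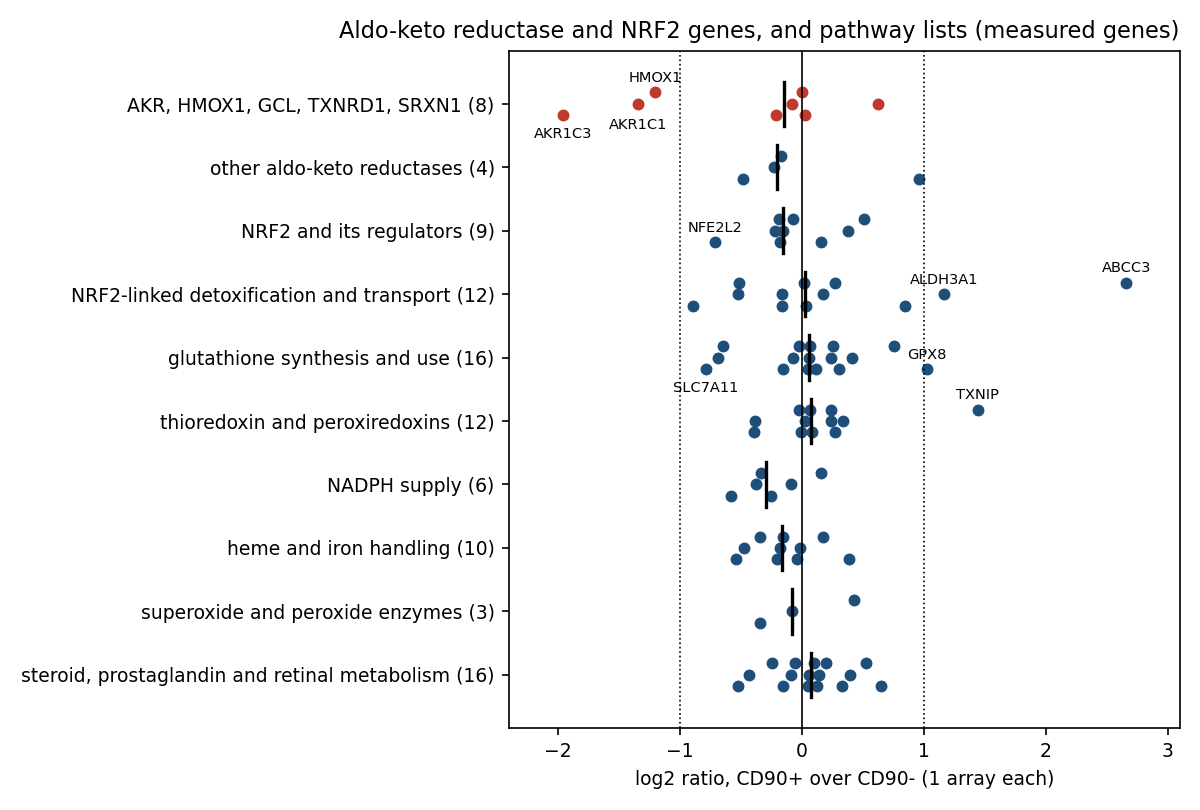
Log2 ratio, CD90+ over CD90- (1 array each), of each measured gene in the top row of 8 aldo-keto reductase and antioxidant genes (red) and in the 9 pathway lists (blue), with the number measured in brackets, a black bar at the median and dotted lines at 2-fold. AKR1C3, AKR1C1 and HMOX1 are the points beyond 2-fold on the low side, and ABCC3, TXNIP, ALDH3A1 and GPX8 those on the high side.

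No gene directly next to the AKR1C cluster could be measured. Of the 10 named genes on each side in RefSeq's gene order, 4 were measured, and none was beyond 2-fold. All 4 lie on the same side, 7 to 10 places from AKR1C3. NET1 read 4596 in CD90+ and 3085 in CD90- cells, with a log2 ratio of 0.58, and the other 3, UCN3, TUBAL3 and CALML5, were each under 2 times the floor. The log2 ratios of the 4 ran from -0.15 for CALML5 to 0.66 for TUBAL3, with a median of 0.51. AKR1C8, directly next to AKR1C3, had no probe set listed. The other nearest genes, AKR1E2, AKR1C4 and the pseudogene AKR1C6P, were under the floor on both arrays, AKR1C6P at 69.2 and 10.3. Beside AKR1B1 and AKR1B10, 6 of 20 neighbours were measured, with a median of -0.01. CALD1, an actin-binding protein gene next to BPGM, was beyond 2-fold, at 2166 and 281, a log2 ratio of 2.94, while BPGM, which lies between it and the AKR1B genes, read 1086 and 1006.

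**Figure D4:**
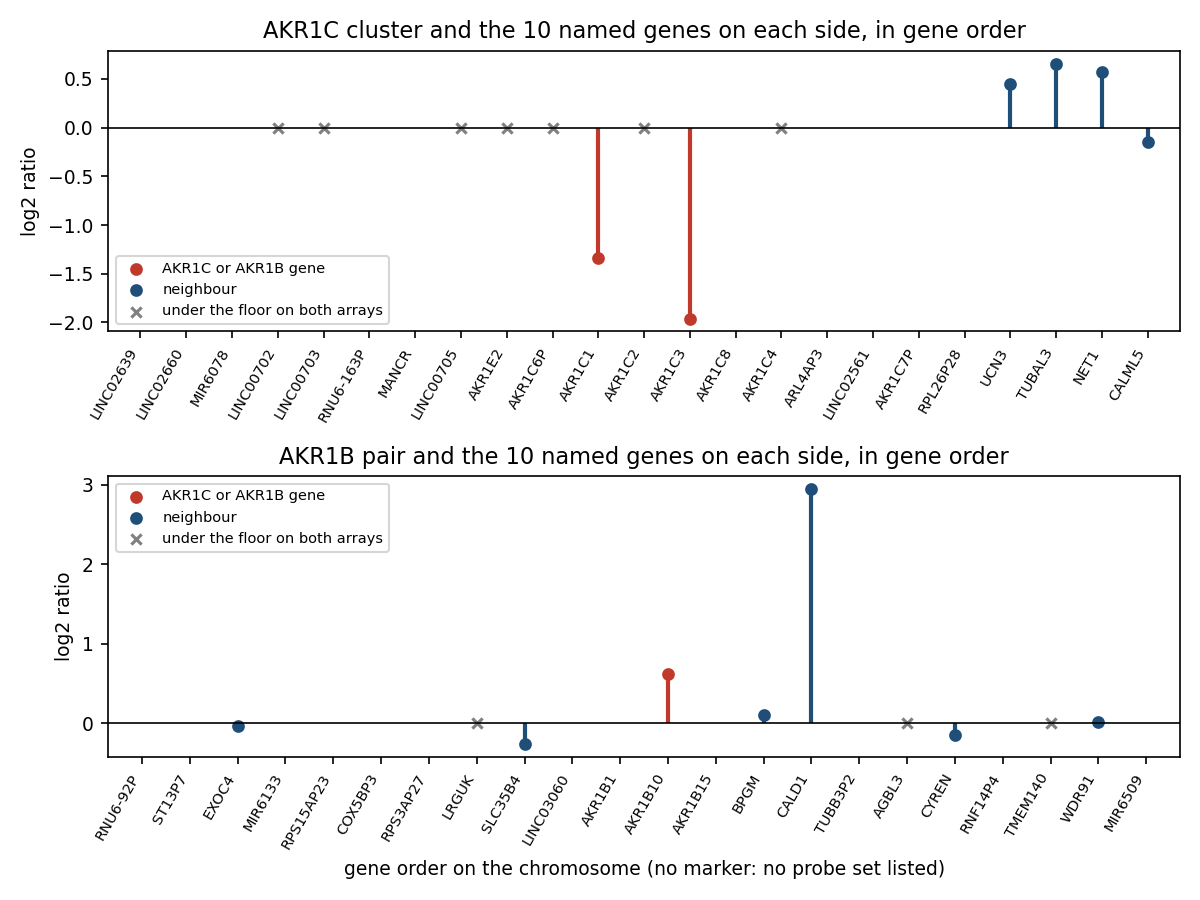
Log2 ratio, CD90+ over CD90- (1 array each), of the AKR1C genes on chromosome 10 (top) and the AKR1B genes on chromosome 7 (bottom) in red, and of the 10 named genes on each side in blue, in gene order, with grey crosses for genes under the floor on both arrays and no marker where no probe set was listed. The red bars of AKR1C1 and AKR1C3 reach -1.34 and -1.96 while the 4 measured neighbours lie between -0.15 and 0.66, and AKR1C2 is a cross because the probe set that stands for it is under the floor.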

How the data were processed

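MAS5 is the method the submitters' processing notes name, with no version or settings. The values the authors deposited are signal intensities on a linear scale, 1 per probe set and array. MAS5 subtracts mismatch signal, so dim values are noisy. Gene names came from the platform annotation, updated by gene identifier to RefSeq symbols (GRCh38.p14); 41097 of 54675 had 1 symbol, 1801 several and 11777 none here. The 62 control probe sets were left out. Samples were grouped by the cell population label, 1 array each, so no test was made. A gene was counted beyond 2-fold on the probe set with the highest mean log2 signal outside the _x_at class, which was used where a gene had no other. The floor of 71.6 is the geometric mean of the 2 array medians. The members and gene lists were chosen with earlier results of these data known. Named were all members, up to 4 list genes each way beyond 2-fold or else the 2 brightest, and neighbours beyond 2-fold. Any other gene was chosen for its role or after its values were seen. Alternatives changed the floor, the normalization, the probe set and the threshold. The counting step was tested on simulated data, with assumed noise and changes planted only in genes averaging above 4 times the floor. This gives no measure of the spread between sorts. Promoter sequences are RefSeq's. Software was pandas 2.3.3, numpy 2.4.6, statsmodels 0.14.6 (loess) and Python 3.11.15.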

Additional observations from a re-analysis of the deposited data

How the results depend on the processing

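Of the 3 genes at least 2-fold lower in CD90+ cells, AKR1C3 alone (1) was left when the floor was raised to the 75th percentile, where 5 of the 10 genes were measured. AKR1C1 was also under 2-fold by the mean over its probe sets (log2 ratio -0.98) and by its least changed or brightest probe set (-0.73). By the mean the count stayed at 3 because AKR1C2, at -1.07, was then measured and counted. At a 1.5-fold threshold 1 gene and 1 probe set were higher, and 9 probe sets were lower. The count of 4 probe sets at least 2-fold lower was 8 without a floor, 7 for a floor at percentile 25 and 2 for percentile 75. The share of all measured genes lower by that much also moved with the floor. It was 9.02% without a floor, 4.85% for percentile 25 and 0.81% for percentile 75, against 1.75% in the main setting. Shares of all probe sets are not given for these other floors, so the counts of 8 and 7 cannot be weighed against them. Of the pathway lists, 11 of 101 measured genes were at least 2-fold higher without a floor, against 11.2% of all genes. For a floor at percentile 75 it was 2 of 67, against 1.10%. The probe set of smallest change gave 2 of 88, against 1.78%. Without the _x_at, _s_at and _a_at classes it was 2 of 59, against 2.34%. Without those classes 1 of the 59, FECH, was at least 2-fold lower, against 1.94% of all measured genes. The cause was not tested. Loess (span 0.3), centring the median ratio on 0 and quantile normalization kept the counts above within 1.5 times. With these normalizations AKR1C3 ranged from -1.98 to -1.95 on the log2 scale and HMOX1 from -1.20 to -1.16. Each has 1 probe set, so the floor and probe set alternatives left their ratios unchanged where they were measured. AKR1C2, by its probe sets, ranged from -1.80 to -0.86, the first being under the floor. The brightest probe set of any class was an alternative added after the data were seen. Every limit here comes from 1 array per population. No paired analysis was possible because each population has 1 sample.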

Other observations

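Several NRF2-linked genes within 2-fold went in opposite directions, as seen after the values were known. UGDH, which makes UDP-glucuronate for conjugation, read 654 in CD90+ and 1216 in CD90- cells, 1.86-fold lower. CBR3, a carbonyl reductase, read 2326 and 1297, 1.79-fold higher. MGST2, a microsomal glutathione transferase, read 1980 and 1169, 1.69-fold higher, and GSTA4, a transferase for lipid aldehydes, read 2503 and 3927, 1.57-fold lower. ME1, the cytosolic malic enzyme that supplies NADPH, read 2891 and 4325, a log2 ratio of -0.58. Over the 9 pathway lists 8 of the 88 measured genes were higher by at least 1.5-fold and 5 lower by that much, against 7.37% and 6.76% of all measured genes. These counts lie near the background, and none of the differences has a replicate.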
